A study of Vitis vinifera with 24 samples.

Results

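Leaves of the grapevine cultivar 'Thompson Seedless' kept in the cold (4 ℃, 48 h) were set against leaves given PEG6000 for 48 h, both without trehalose, by RNA-seq. The comparison covers 3 libraries of cold leaves and 3 libraries of PEG6000 leaves, 6 of the 24 libraries in the series. The libraries were chosen by their treatment labels, and genes were kept where at least 3 of the 24 libraries had 1 FPKM or more (fragments scaled to transcript length and to the mapped fragments of the library), which left 20053 of 35840 genes. The plants were self-rooted cuttings from a greenhouse. The same pair of stresses was also measured in leaves that received trehalose (trehalose+cold and trehalose+PEG6000), and NaCl-treated, trehalose-treated and untreated control leaves give further reference levels, each with 3 libraries. All treated leaves were sampled after 48 h. The sources give no dose of PEG6000, NaCl or trehalose, no time for the control leaves, no order of trehalose and stress, and no statement that the biological replicates were separate plants. P-values therefore describe the spread over these samples, which may be technical. Sequencing depth is unknown.

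Low temperature and osmotic stress can both disturb the water balance of plant cells, by different routes. PEG6000 is a polymer too large to enter cells easily, which draws water out of tissue by lowering the water potential outside the cells. The hormone abscisic acid is a main signal in that response. Chilling slows enzymes and stiffens membranes, and acts largely through the CBF transcription factors, while both stresses induce protective proteins such as dehydrins and the synthesis of compatible solutes. The deposited table identifies genes by number only, and 0 of its identifiers occur in the reference table of gene names used here, so neither these pathways nor marker genes of the leaf's cell types could be looked up. Genes are therefore described by their levels and by their behaviour across treatments, and 2 are named in each direction per comparison. In bulk leaf RNA, fewer cells of a type and less RNA per cell cannot be told apart.

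Cold and PEG6000 leaves differed in most of the genes tested. Levels were compared as log2(FPKM + 1), and differences are given as cold minus PEG6000 on that scale, which understates the change of low genes. Limma with Benjamini-Hochberg adjustment called 5205 genes higher in cold (26% of those tested) and 11587 lower (57.8%) at an adjusted p below 0.05. At a difference of at least 2-fold, 1605 genes were higher in cold (8% of those tested) and 3327 were lower (16.6%). The surplus of genes lower in cold narrowed with the size of the difference. There were 488 genes higher and 776 lower at 4-fold, 170 and 200 at 8-fold, 54 and 56 at 16-fold, and 20 and 13 at 32-fold.

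That surplus also depended on how the libraries were scaled. The median log2 difference of all tested genes was -0.28 with FPKM as deposited. It was -0.01 after scaling by median-of-ratios factors, which by construction bring the median change near 0, and -0.03 after quantile normalization. With median-of-ratios scaling 8019 genes were called higher and 8154 lower, and at 2-fold 2339 were higher and 2257 lower, so the 2-fold surplus turned. Quantile normalization gave 7755 higher and 8283 lower, and at 2-fold 2214 and 2122.

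**Figure D1:**
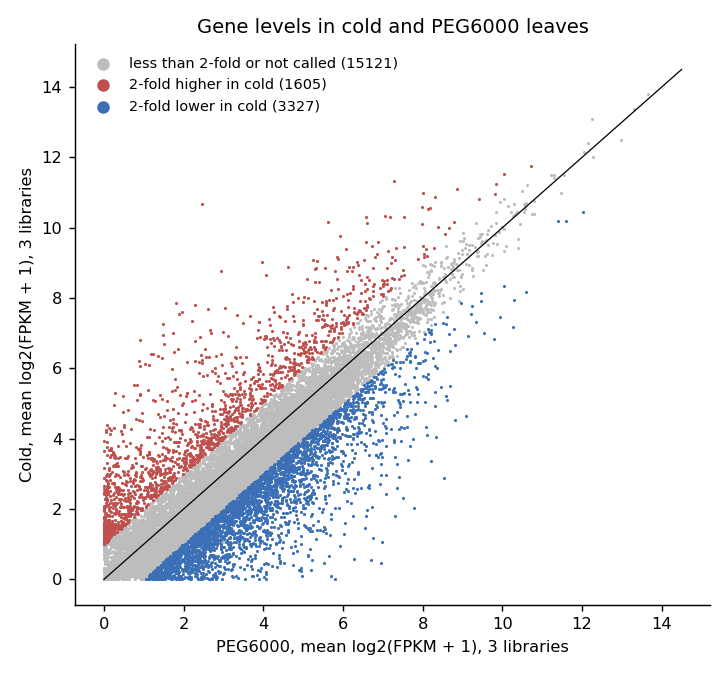
Mean log2(FPKM + 1) of each of the 20053 tested genes in cold (vertical) and PEG6000 (horizontal) leaves, 3 libraries each, with the line of equal levels. The 1605 genes at least 2-fold higher in cold lie above the line and the 3327 genes at least 2-fold lower lie below it.

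The libraries of each treatment lay close together compared with the gap between treatments. Pearson correlations of log2(FPKM + 1) across genes were 0.996 to 0.997 within cold and 0.997 for every pair within PEG6000, against 0.864 to 0.867 between a cold and a PEG6000 library. Fewer genes reached 1 FPKM in cold than in PEG6000 leaves on the deposited scale. Genes at 1 FPKM or more numbered 16817 to 16844 in cold libraries and 17625 to 17681 in PEG6000 libraries, and the groups did not overlap. The two-sided exact permutation p of 0.1 is the smallest that 3 libraries against 3 can give. Control libraries had 16953 to 16985 such genes, nearer to cold than to PEG6000, and NaCl libraries had 17770 to 17800. The number of genes listed at 0 overlapped between the treatments. It was 11272, 11437 and 11519 in cold libraries and 11624, 11405 and 11461 in PEG6000 libraries. Total FPKM per library ranged from 608911 to 621030 over the 6 libraries. The overall distance, taken as the square root of the mean squared log2 difference over genes, was 1.04 between cold and PEG6000, 0.98 between cold and NaCl and 0.76 between PEG6000 and NaCl. These distances share libraries and were not tested against each other.

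Both genes named for a higher level in cold were below 5 FPKM in PEG6000 leaves. Vitvi04g01368 had 1606, 1626 and 1687 FPKM in cold leaves, against 4.60, 4.24 and 4.60 FPKM in PEG6000 leaves. Its level in PEG6000 leaves lay within the range of control leaves, which had 4.01, 5.06 and 3.50 FPKM. The log2 difference between cold and PEG6000 was 8.23 (SE 0.11, limma adjusted p 5.28e-26).

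Vitvi18g00789 had 228, 233 and 232 FPKM in cold leaves, against 2.73, 2.53 and 2.26 FPKM in PEG6000 leaves and 2.41, 2.53 and 2.24 FPKM in control leaves. The log2 difference was 6.05 (SE 0.07, limma adjusted p 1.09e-26). For both genes, all cold libraries were far above every PEG6000 library, and PEG6000 against control missed the threshold of the same test (log2 differences of 0.09, SE 0.11, and 0.05, SE 0.07, with limma adjusted p of 0.47 and 0.581).

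Both genes named for a lower level in cold were below 1 FPKM there. Vitvi18g02709 had 0.221, 0.505 and 0.424 FPKM in cold leaves, against 129, 123 and 116 FPKM in PEG6000 leaves. It is listed at 0 in every control library. Its log2 difference was -6.48 (SE 0.12, limma adjusted p 2.31e-23).

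Vitvi07g02243 had 0.457, 0.300 and 0.636 FPKM in cold leaves and 101, 108 and 99.98 FPKM in PEG6000 leaves, a log2 difference of -6.16 (SE 0.14, limma adjusted p 1.47e-21). Control leaves had 1.84, 0.929 and 0.617 FPKM, and NaCl leaves 18.2, 17.98 and 17.4 FPKM. Cold was called lower than control (log2 difference -0.51, SE 0.14, limma adjusted p 0.00221), although the highest cold library lay above the lowest control library, while the NaCl libraries lay between control and PEG6000.

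**Figure D2:**
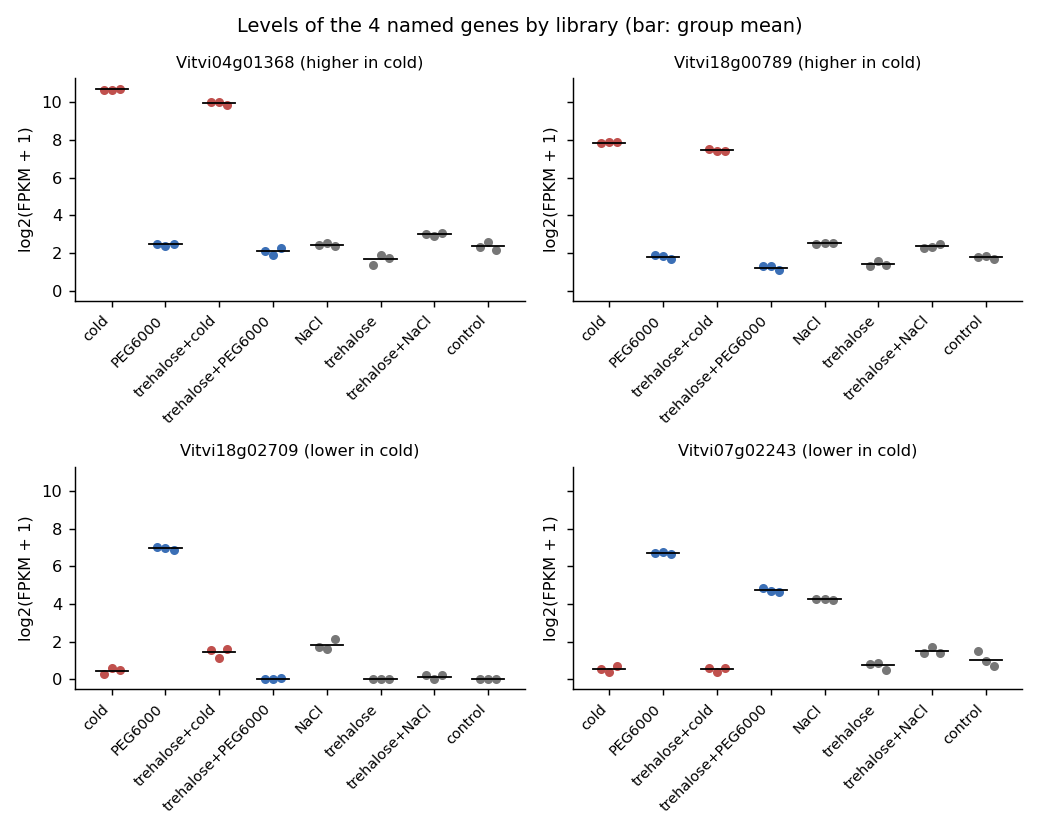
Level of the 4 genes named for cold against PEG6000, as log2(FPKM + 1), in each of the 24 libraries by group, with a bar at each group mean. Vitvi04g01368 and Vitvi18g00789 were high in the cold groups only among the 8 groups, and Vitvi18g02709 in PEG6000 leaves only.

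The 1605 genes higher in cold made up a large part of the transcriptome of cold leaves. They held 21.5 ± 0.080% (SD, n = 3) of all FPKM in cold leaves and 5.39 ± 0.023% in PEG6000 leaves. In control leaves they held 6.34 ± 0.046%. The 3327 genes lower in cold held 5.34 ± 0.027% in cold leaves and 19.1 ± 0.088% in PEG6000 leaves, with 6.34 ± 0.0052% in control leaves. These shares describe the genes that were chosen on the same libraries, so the gap between cold and PEG6000 follows from the choice. Libraries of the other treatments showed where the gene sets stood elsewhere. They entered the gene filter and the shared estimate of the spread, but not the difference used for the choice. The genes higher in cold held 18.2 ± 0.10% in trehalose+cold leaves and 7.83 ± 0.12% in trehalose+PEG6000 leaves. The genes lower in cold held 5.76 ± 0.016% in trehalose+cold leaves and 9.54 ± 0.096% in trehalose+PEG6000 leaves, near the 9.80 ± 0.028% of NaCl leaves. In each set the trehalose+cold and trehalose+PEG6000 libraries did not overlap, and the gap between them was narrower than without trehalose, most of all for the genes lower in cold. Both sets were chosen for their gap without trehalose, so a narrower gap with it follows in part from the choice.

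**Figure D3:**
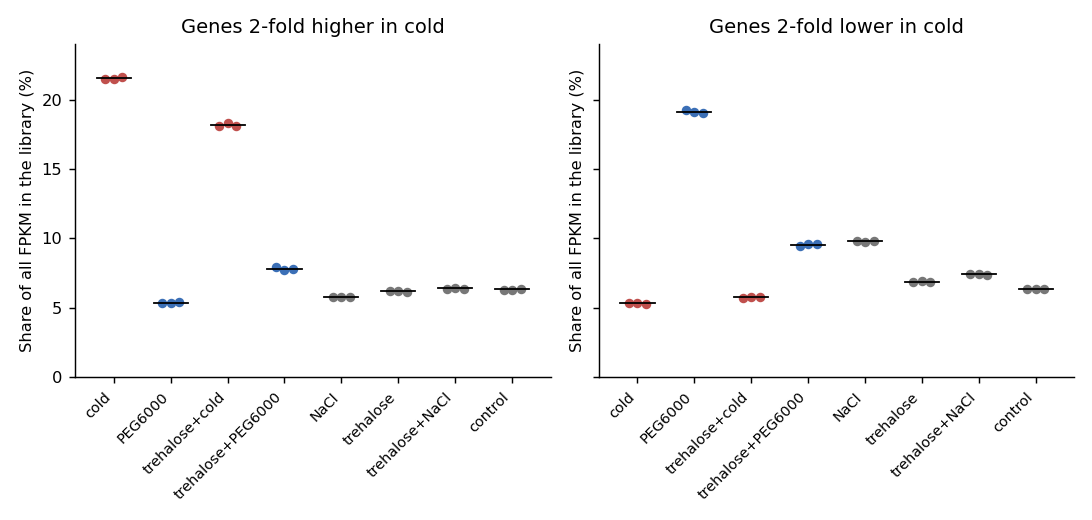
Share of all FPKM in each library (percent) held by the 1605 genes at least 2-fold higher in cold than in PEG6000 (left) and by the 3327 genes at least 2-fold lower (right), with a point per library and a bar at the group mean. In the right panel trehalose+PEG6000 libraries lie at 9.43 to 9.61% and PEG6000 libraries at 19.1 to 19.2%.

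The sets were not carried by a few genes. The 10 most abundant genes higher in cold, at 1639.7 to 3464 FPKM on average in cold leaves, accounted for 17.5% of the FPKM of that set. For the genes lower in cold the 10 most abundant, at 748 to 4157 FPKM in PEG6000 leaves, accounted for 14.98%. In the cold, 280 of the 1605 genes averaged 100 FPKM or more and 23 averaged 1000 FPKM or more. Under PEG6000, 213 of the 3327 genes reached 100 FPKM and 7 reached 1000 FPKM. Of the 100 most abundant genes in cold leaves and the 100 most abundant in PEG6000 leaves, 68 were the same. In the cold list 32 genes were at least 2-fold higher in cold, against 8% of all tested genes, and in the PEG6000 list 17 were at least 2-fold lower in cold, against 16.6%. Each list was chosen for abundance in the libraries compared, which favours these directions, so nothing is read from the counts.

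Abundant and less abundant genes differed in direction, in classes set by a mean that includes the libraries compared. A gene can thus enter the top class through its level under a single stress. The contrast may therefore follow in part from how the classes were set. Among 884 genes with a mean of 100 FPKM or more over the 24 libraries, 129 were at least 2-fold higher in cold (14.6%) and 48 lower (5.43%), against 8% and 16.6% of all tested genes. Among 7254 genes between 5 and 20 FPKM, 432 were higher (5.96%) and 1380 lower (19.0%). The same contrast held under each scaling tried, with the classes left as they were. With median-of-ratios scaling the counts were 179 higher and 26 lower among abundant genes and 683 and 890 between 5 and 20 FPKM, and with quantile normalization 120 and 64, and 672 and 779. The median SE of the log2 difference was 0.03 in the most abundant class and 0.10 below 2 FPKM, so smaller differences pass the test among abundant genes.

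The control level was used to describe on which side the 2-fold genes had moved. For the 1605 genes higher in cold, the median log2 level was 3.95 in cold leaves, 2.11 in PEG6000 leaves and 2.32 in control leaves. The control mean was nearer to PEG6000 than to cold for 1236 of these genes (77.0%). It lay below both treatments for 745 genes, between them for 698 and above both for 162. For the 3327 genes lower in cold, the median log2 level was 2.02 in cold leaves, 3.77 in PEG6000 leaves and 2.61 in control leaves. Here the control mean was nearer to cold for 1981 genes (59.5%). It lay below both for 1167, between for 1596 and above both for 564. Set against the same control libraries, the genes higher in cold had a median log2 difference of 1.49 for cold and -0.02 for PEG6000, and the genes lower in cold had -0.40 for cold and 1.05 for PEG6000. At the median, genes higher in cold thus lay above control in cold leaves and near control under PEG6000, while genes lower in cold lay above control under PEG6000 and, by a smaller step, below it in cold. That step depended on the scaling. For the genes lower in cold, the median difference from control with median-of-ratios scaling was -0.08 for cold and 1.39 for PEG6000. With median-of-ratios scaling the control lay between the treatments for 1132 genes higher in cold and 904 genes lower in cold, and above both for 235 and 324.

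NaCl leaves, under another stress that limits water uptake, lay between cold and PEG6000 for most of the genes lower in cold. This held for 2114 of the 3327 genes (63.5%), where the control mean lay between for 48.0%. The genes were chosen for a gap of at least 2-fold, which favours a level between. The NaCl mean was nearer to PEG6000 for 2057 (61.8%), where the control mean was nearer to PEG6000 for 40.5%. By the share of FPKM of the same genes, NaCl leaves (9.80%) were nearer to cold leaves (5.34%) than to PEG6000 leaves (19.1%). For the genes higher in cold the NaCl mean was nearer to PEG6000 for 1258 of 1605 genes (78.4%), about as often as the control mean (77.0%). The NaCl mean lay between cold and PEG6000 for 832 of them (51.8%), and the control mean for 43.5%. The median log2 level of NaCl leaves was 3.16 for the genes lower in cold and 2.48 for the genes higher in cold.

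A small group of genes was switched between near silence and clear expression. In 42 genes all cold libraries reached 10 FPKM while all PEG6000 libraries stayed under 1 FPKM. Their median was 16.5 FPKM in cold leaves and 0.244 FPKM in PEG6000 leaves, and 32 of them were below 1 FPKM in every control library. With trehalose, 30 of the 42 were at 10 FPKM or more in every trehalose+cold library and 26 stayed under 1 FPKM throughout the trehalose+PEG6000 libraries. The reverse pattern, under 1 FPKM in all cold and 10 FPKM or above in all PEG6000 libraries, was found in 49 genes. Their median was 0.358 FPKM in cold leaves and 17.9 FPKM in PEG6000 leaves, and 40 were below 1 FPKM in every control library. With trehalose, 3 of the 49 reached 10 FPKM throughout the trehalose+PEG6000 libraries and 28 stayed under 1 FPKM there. Most genes of the second group thus did not reach 10 FPKM throughout when trehalose accompanied PEG6000, while most genes of the first group did in trehalose+cold leaves. Both groups were chosen by the limit of 10 FPKM, so values under it in other libraries follow in part from the choice. The search covered all 35840 genes, without the filter. Of these, 16953 to 16985 reached 1 FPKM in a control library and 18215 to 18386 in a trehalose+PEG6000 library. A level under 1 FPKM was thus common in those libraries.

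The comparison of cold with PEG6000 in trehalose-treated leaves shows which differences recurred. Its group means share no library with those of the main comparison, while the gene filter and the estimate of the spread were common to both. It gave differences of similar extent. Limma called 4976 genes higher in trehalose+cold than in trehalose+PEG6000 (24.8% of those tested) and 12121 lower (60.4%), with 1653 higher (8.24%) and 3518 lower (17.5%) at 2-fold. The distance, computed as above, was 1.03. Genes are not independent replicates, and across them the log2 differences of both pairs correlated with Pearson's r of 0.49 and Spearman's rho of 0.47 over 20053 genes.

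With the pseudocount of 1, genes higher in cold recurred in a larger share than genes lower in cold. This contrast between the sets was not tested, and it turned with smaller pseudocounts. Of the 1605 genes 2-fold higher in cold, 1325 (82.6%) were also called higher with trehalose, where 24.8% of all genes were. Of the 3327 genes 2-fold lower in cold, 2480 (74.5%) were also called lower with trehalose, where 60.4% of all genes were. At 2-fold in both pairs the shares were 60.3% of the genes higher in cold and 38.8% of the genes lower. In reverse, 58.6% of the genes 2-fold higher in trehalose+cold and 36.7% of those 2-fold lower were so without trehalose, shares of similar size. With median-of-ratios scaling 84.5% of the genes higher in cold and 62.0% of the genes lower recurred, against 41.5% and 40.5% of all genes. With a pseudocount of 0.1 the order turned, as 1598 of 2167 genes higher in cold and 3724 of 4796 genes lower recurred. At 0.01 the counts were 1584 of 2235 and 3867 of 4986. With the pseudocount of 1, the median log2 difference of the genes higher in cold was 1.53 without trehalose and 1.25 with it. That of the genes lower in cold was -1.45 without and -0.80 with it. The sets were chosen on the difference without trehalose, so smaller medians with it follow in part from the choice.

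The contrast was widest among the largest differences. Of the 170 genes at least 8-fold higher in cold, 161 (94.7%) were called higher with trehalose, with a median log2 difference of 3.46. Of the 200 genes at least 8-fold lower in cold, 76 (38.0%) were called lower with trehalose and 95 (47.5%) were called higher, in the opposite direction. Their median log2 difference was 0.15. Of all genes, 60.4% were called lower with trehalose and 24.8% higher. The share turned round was 40.7% with TPM-like scaling (to a common total per library), 58.2% with median-of-ratios scaling and 58.5% with quantile normalization. There 23.4%, 41.5% and 35.7% of all genes were called higher. In the same order, the share called lower was 43.7%, 28.1% and 27.5%, against 62.6%, 40.5% and 45.6% of all genes. With TPM-like scaling, fewer of these genes thus turned round than kept their direction. Both sets were chosen for extreme values without trehalose, so smaller differences with trehalose follow in part from the choice.

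**Figure D4:**
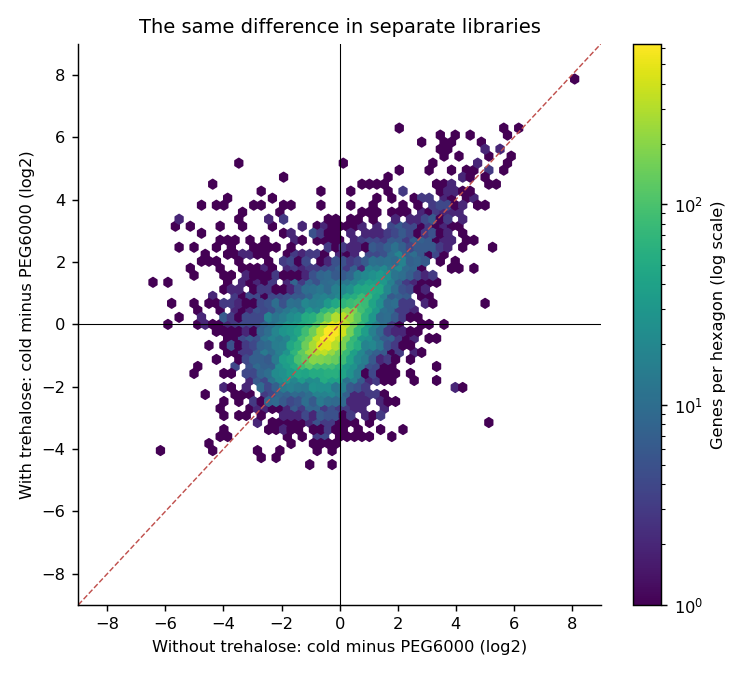
Log2 difference between cold and PEG6000 for 20053 genes in leaves without trehalose (horizontal) and with trehalose (vertical), as the number of genes per hexagon on a log colour scale; the dashed line marks equal differences. Genes far to the right follow the dashed line, and many genes far to the left lie near or above 0 on the vertical axis.

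The genes named for the trehalose pair show both kinds of behaviour. Vitvi04g01368 again led the genes higher in the cold, with 1014, 1034 and 932 FPKM in trehalose+cold leaves, against 3.33, 2.68 and 3.75 FPKM in trehalose+PEG6000 leaves (log2 difference 7.87, SE 0.11, limma adjusted p 1.18e-25). Vitvi04g02210 followed, with 138, 132 and 131 FPKM in trehalose+cold leaves and 0.731, 0.715 and 0.726 FPKM in trehalose+PEG6000 leaves. Without trehalose it had 109, 101 and 99.8 FPKM in cold and 25.7, 24.2 and 24.6 FPKM in PEG6000 leaves. The PEG6000 level thus differed far more between the settings than the cold level, with log2 differences of 2.01 (SE 0.10) without trehalose and 6.29 (SE 0.10, limma adjusted p 1.4e-24) with it.

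Vitvi19g00680 had 0.0217, 0.0336 and 0.0671 FPKM in trehalose+cold leaves, against 23.5, 23.9 and 23.8 FPKM in trehalose+PEG6000 leaves (log2 difference -4.57, SE 0.10, limma adjusted p 6.73e-22; -8.97 with a pseudocount of 0.01 in place of 1). Without trehalose it was near 0 in every library, at 0.00726 and 0.0571 FPKM in 2 cold libraries and listed at 0 in the third, and at 0.264, 0.0657 and 0.279 FPKM in PEG6000 leaves. Vitvi03g01350 had 0.224, 0.426 and 0.408 FPKM in trehalose+cold leaves and 28.0, 30.7 and 29.2 FPKM in trehalose+PEG6000 leaves (log2 difference -4.49, SE 0.08, limma adjusted p 8.76e-24). Without trehalose it was low under both stresses, with 0.533, 0.293 and 0.509 FPKM in cold and 2.21, 2.35 and 1.69 FPKM in PEG6000 leaves, against 31.8, 32.7 and 29.3 FPKM in control leaves. Its level in trehalose+PEG6000 leaves was thus close to control.

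Whether the difference between cold and PEG6000 itself differed between leaves without and with trehalose was tested gene by gene. The difference of differences (without minus with trehalose) was called for 13717 genes (68.4% of those tested), 7306 positive and 6411 negative, and 3849 of them (19.2%) reached 2-fold. In 3684 of these 3849 genes (95.7%) the PEG6000 arm moved further with trehalose than the cold arm did. The median absolute log2 change was 1.54 between trehalose+PEG6000 and PEG6000, and 0.22 between trehalose+cold and cold. Over all genes, 3936 changed at least 2-fold between trehalose+PEG6000 and PEG6000, and 236 between trehalose+cold and cold. Choosing genes by the difference of both arms favours the arm that changed more over all genes, so the 95.7% follows in part from the choice.

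In the largest of these genes the order of both stresses was reversed. Vitvi07g02362 had 84.6, 79.6 and 86.7 FPKM in cold leaves and 1.195, 1.63 and 1.28 FPKM in PEG6000 leaves, but 32.3, 31.7 and 33.6 FPKM in trehalose+cold leaves and 264, 279 and 278 FPKM in trehalose+PEG6000 leaves. The difference of differences was 8.20 on the log2 scale (SE 0.10, limma adjusted p 7.95e-26). Vitvi02g01358 had 26.7, 29.7 and 22.7 FPKM in cold leaves and 0.112, 0.558 and 0.553 FPKM in PEG6000 leaves, but 18.6, 16.2 and 19.4 FPKM in trehalose+cold leaves and 81.0, 84.6 and 83.9 FPKM in trehalose+PEG6000 leaves (6.44, SE 0.14, limma adjusted p 3.65e-21). In control leaves it had 25.4, 28.0 and 26.8 FPKM, a range that overlapped with cold leaves and lay far above PEG6000 leaves.

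On the negative side PT_newGene_31, an identifier of the second kind in the deposited table, had 6.05, 6.64 and 6.37 FPKM in cold leaves and 363, 372 and 367 FPKM in PEG6000 leaves, but 41.1, 41.2 and 44.6 FPKM in trehalose+cold leaves and 2.77, 2.72 and 3.67 FPKM in trehalose+PEG6000 leaves (-9.07, SE 0.10, limma adjusted p 3.14e-26). PT_newGene_38 had 2.56, 2.71 and 2.11 FPKM in cold leaves and 158, 161 and 156 FPKM in PEG6000 leaves, but 23.4, 24.5 and 24.1 FPKM in trehalose+cold leaves and 1.16, 1.26 and 1.16 FPKM in trehalose+PEG6000 leaves (-9.04, SE 0.10, limma adjusted p 3.14e-26). With pseudocounts of 0.1 and 0.01, Vitvi18g02709 (-7.89 with the pseudocount of 1) was further on the negative side, at -11.97 and -14.83, than PT_newGene_31 (-9.59 and -9.65) and PT_newGene_38 (-10.18 and -10.33). For both PT_newGene genes trehalose accompanied a lower level under PEG6000 and a higher level in the cold.

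Genes that were at least 2-fold different in both pairs but in opposite directions fell into 2 sets. In 65 genes cold was the higher without trehalose and the lower with it, and their median log2 levels were 3.05 in cold, 1.31 in PEG6000, 2.75 in trehalose+cold, 4.84 in trehalose+PEG6000 and 3.30 in control leaves. In the other 179, cold was the lower without trehalose and the higher with it. Their median log2 levels were 2.70 in cold, 5.39 in PEG6000, 3.70 in trehalose+cold, 1.44 in trehalose+PEG6000 and 0.66 in control leaves. The sets were chosen for opposite directions, so a change in the order of cold and PEG6000 follows from the choice. By these medians the PEG6000 arm moved further than the cold arm in both sets. In the larger set the cold levels lay above control with and without trehalose.

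The identifiers gave a further division. Of 475 tested genes with a PT_newGene identifier, 48 were at least 2-fold higher in cold (10.1%) and 139 lower (29.3%), against 8% and 16.6% of all tested genes. With trehalose 62 of them (13.1%) were 2-fold higher in trehalose+cold and 82 (17.3%) lower, against 8.24% and 17.5% of all genes. Most other identifiers carry a number from 01 to 19, which in the grapevine naming scheme stands for the chromosome. The share of genes 2-fold higher in cold ranged from 6.41 to 9.26% over these 19 numbers. The share lower in cold ranged from 13.7 to 23.0%, and the highest value belonged to number 16, with 162 of 705 genes. The other 18 lay at 18.7% or less. In the trehalose pair 117 of the 705 genes of number 16 were 2-fold lower (16.6%), within the range of 13.5 to 21.4% over the 19 numbers. With median-of-ratios scaling 24% of PT_newGene genes and 16.2% of the genes of number 16 were lower in cold, where 11.3% of all genes were. These shares were described and not tested, since neighbouring genes are not independent.

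**Figure D5:**
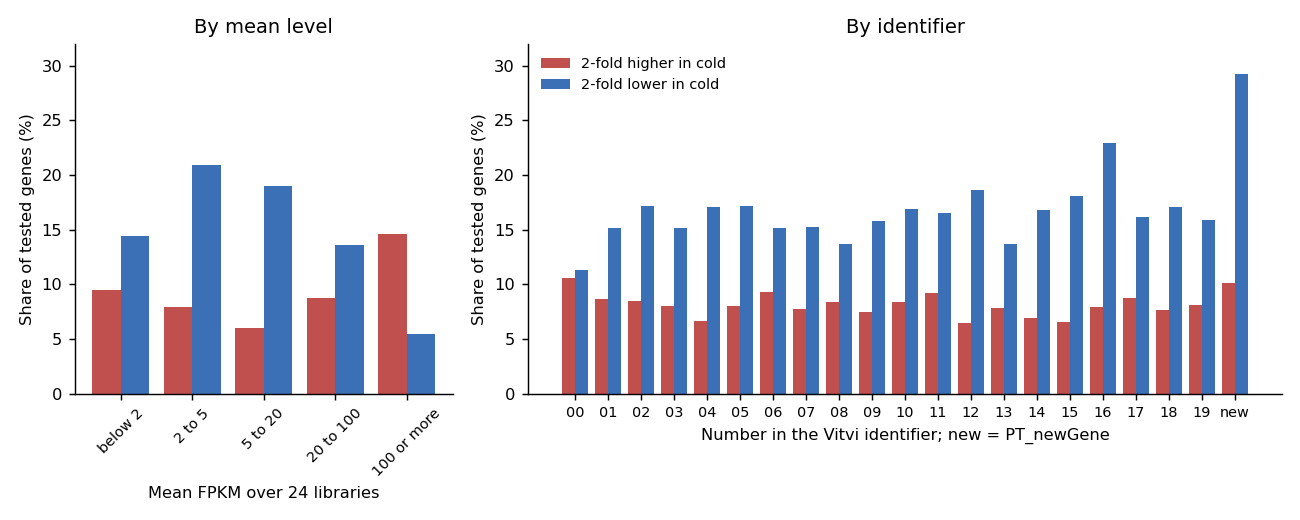
Share of tested genes (percent) at least 2-fold higher (red) and at least 2-fold lower (blue) in cold than in PEG6000 leaves, by mean level over 24 libraries (left) and by the number in the gene identifier, with new for PT_newGene (right). Genes of 100 FPKM or more are the class with more genes higher than lower in cold, and PT_newGene identifiers have the largest share lower, 29.3%.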

How the data were processed

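Leaf RNA of 24 libraries in 8 treatment groups of 3 was sequenced, and the authors deposited 1 table of FPKM with a column per library and 35840 gene identifiers (35134 Vitvi, 706 PT_newGene). Tools named in the submitters' processing notes are HISAT2 2.1.0, StringTie 2.1.3b, SAMtools 1.9 and fastp 0.20.0. The build, the annotation, strand use and settings were not given in the labels, so reads of near-identical, overlapping or antisense genes may have been divided between them. Columns were matched to samples by name, with 0 columns left over. Depth is unknown. Whole reads would leave steps among low values, and these were searched for in 2 cold libraries over 2100 genes listed between 0 and 0.2 FPKM in each. The fullest 2% window of between-library ratios contained 2% of the genes, so FPKM could not be turned back into reads and count models were not used.

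The filter kept 20053 genes (1 FPKM or more in 3 or more libraries). Values were taken as log2(FPKM + 1) and fitted with limma 3.58.1 in R 4.3.3 (1 mean for each of 8 groups, 16 residual degrees of freedom, variance trend), with two-sided p adjusted by Benjamini-Hochberg over all 20053 genes in each of 3 comparisons. Calls were made at an adjusted p below 0.05, and 2-fold means an absolute log2 difference of at least 1. Named genes are the 2 called genes of largest difference per direction and comparison, among those averaging 5 FPKM or more in the higher group whose replicates did not overlap. Identifiers could not be paired with names, so lists of pathway and cell type genes, and the part of the rule that used them, were not applied. The comparisons, sets and rules were chosen with earlier results of these data known. The limma step was tested on simulated data. Alternatives were other pseudocounts, filters and scalings, no variance trend, sample weights, fewer groups in the fit, a replicate block, and leaving out each library. Figures used Python 3.11.15 with matplotlib 3.10.9.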

Additional observations from a re-analysis of the deposited data

Results flagged for a closer look

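For 10 of the 11 named genes the test of the difference itself found that cold minus PEG6000 differed between leaves without and with trehalose. The same test called 68.4% of all genes tested. The named genes were chosen as extremes of this difference or of either pair, so the count follows in part from the choice. The values are without minus with trehalose on the log2 scale. They were 8.20 for Vitvi07g02362, 6.44 for Vitvi02g01358, 4.34 for Vitvi19g00680 and 3.40 for Vitvi03g01350 on the positive side. On the negative side they were -9.07 for PT_newGene_31, -9.04 for PT_newGene_38, -7.89 for Vitvi18g02709, -4.28 for Vitvi04g02210 and -1.97 for Vitvi07g02243. Vitvi18g02709 had 1.92, 1.199 and 2.08 FPKM in trehalose+cold leaves, while it was listed at 0 in 2 trehalose+PEG6000 libraries and had 0.0600 FPKM in the third, against 116 to 129 FPKM in PEG6000 leaves. Its value was -14.83 with a pseudocount of 0.01. For Vitvi04g01368 the value was 0.35 (SE 0.15, limma adjusted p 0.0474), small beside its log2 differences of 8.23 without and 7.87 with trehalose, and the call was lost under 17 of 23 alternatives, most of those that leave out 1 library included. For Vitvi18g00789 it was -0.18 (SE 0.10, limma adjusted p 0.133). Among all genes tested, 3849 differed by at least 2-fold between both settings in the same test.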

How the results depend on the processing

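With pseudocounts of 0.1 and 0.01 the median log2 difference was -0.36 and -0.37, genes lower in cold that recurred with trehalose numbered 3724 and 3867, and genes with control above both stresses numbered 307 and 355 (higher in cold) and 1252 and 1368 (lower in cold). At 0.01, 5321 genes were 2-fold lower in the trehalose pair. Without a filter the median was -0.081. Among genes averaging 5 FPKM or more, a smaller number by construction, the median was -0.29, 3421 genes were called higher in cold, 958 were higher and 2046 lower at 2-fold, 7693 were called lower in the trehalose pair, 975 were higher and 1898 lower there at 2-fold, 4518 had a positive difference of differences, and 760 higher and 1647 lower genes recurred. Control then lay below both for 410 and between for 409 genes higher in cold, and below both for 647 and between for 994 genes lower in cold. TPM-like scaling gave a median of -0.30. Median-of-ratios scaling gave -0.012, 8019 genes called higher in cold, 8329 called higher and 2010 2-fold lower in the trehalose pair, and 1400 lower genes that recurred, with control between for 1132 (higher) and 904 (lower) and above both for 324 (lower). Quantile normalization gave -0.028, 2122 genes 2-fold lower, 2023 in the trehalose pair, and 1274 lower genes that recurred, with control between for 1241 and 888 and above both for 287 and 330. Leaving out 1 library moved the median to between -0.29 and -0.28, and every count by less than 1.5 times. The cause of these shifts was not tested beyond what each setting fixes.

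Replicate numbers showed at most a weak pairing of the libraries. Deviations from the group mean correlated at -0.09 to 0.09 between same-numbered libraries over 12 pairs, 0 of them above 0.1. In 8 of 12 comparisons of a library with the 3 libraries of another group the same number correlated best. That is more often than a random match among 3 libraries would give, so the absence of any pairing was not shown. With the replicate block 5175 genes were called higher and 11575 lower in cold. Of 33 results for named genes, 30 kept direction and call under every alternative computed. Their sizes depended on the pseudocount where a group was near 0. At 0.1 and 0.01, Vitvi18g02709 had 3.93 and 6.47 between trehalose+cold and trehalose+PEG6000 (1.41 at 1) and -11.97 and -14.83 as the difference of differences (-7.89 at 1). Vitvi19g00680 had -7.42 and -8.97 in the trehalose pair (-4.57 at 1), and -1.25 and -3.004 between cold and PEG6000 (-0.23 at 1; -0.35 with TPM-like scaling). Vitvi03g01350 had -2.02 and -2.24 between cold and PEG6000 (-1.09 at 1). The difference of differences of Vitvi04g01368 lost its call under 17 of 23 alternatives (adjusted p 0.00546 to 0.309). Vitvi19g00680, near 0 in cold and in PEG6000 leaves, lost its call between them under 5 of 16 (0.000135 to 0.131), and has no value among genes averaging 5 FPKM or more. Vitvi18g00789 gained a call for the difference of differences under 3 of 23 (0.00117 to 0.38).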
